A study of Mus musculus with 12 samples.

Results

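A set of 9 genes of the complement system were followed through mouse skin in 4 groups, chosen by their symbols among the 55453 genes counted. They were the 3 chains of C1q (C1qa, C1qb, C1qc), C3, C4b, factor B (Cfb), the anaphylatoxin receptors C3ar1 and C5ar1, and the C1 inhibitor Serping1. All 9 were found, and all 9 passed the filter on low counts that left 18311 genes for testing. The study asked how loss of Thy-1, a surface protein of fibroblasts and other cells, bears on skin fibrosis produced by bleomycin, and sequenced whole-skin RNA from 12 mice. Wild-type (WT) and Thy-1–KO mice, both C57/BL6 by the labels, received bleomycin (BLM) or phosphate-buffered saline (PBS), and the series' design gives 21 days. The groups (WT PBS and WT BLM; KO PBS and KO BLM) held 3 mice each, known by their number. Per the study's methods, the KO mice were adult females, and the agents were injected repeatedly under the skin. The paper's discussion calls the Thy-1 knockout global.

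Complement is a protein cascade that marks targets for removal. C1q binds immune complexes or dying cells and, through C1r and C1s, cleaves C4 and C2 (the classical pathway), while factor B forms the convertase of the alternative pathway on deposited C3. Both routes cleave C3, and the small fragments C3a and C5a act on receptors of myeloid cells. Most circulating components come from the liver, but C1q is made chiefly by macrophages and dendritic cells, and fibroblasts and adipocytes produce C3, C4 and C1 inhibitor in tissues.

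All 9 genes lie on the minus strand of GRCm38, the build named in the submitters' processing notes. The C1q genes are neighbours on chromosome 4: C1qb at chr4:136880129-136886187, C1qc at chr4:136889804-136893065 and C1qa at chr4:136895917-136898803. C3 (chr17:57203970-57228136), C4b (chr17:34728380-34743882) and Cfb (chr17:34856374-34862518) are on chromosome 17. C3ar1 is at chr6:122847138-122856161, C5ar1 at chr7:16246743-16259540 and Serping1 at chr2:84765387-84775444. Each is protein coding, with 3 exons in the longest transcript of each C1q gene, 2 in those of C3ar1 and C5ar1, and 41 in those of C3 and C4b.

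The RefSeq promoter table (GRCm38.p6, 250 bases before to 50 after the start) held C1qb, C1qc, C3, C3ar1 and C5ar1. C1qa, C4b, Cfb and Serping1 had no entry. The sequences below are shown because C1qb, C1qc and C3ar1 were called higher in WT BLM (adjusted p under 0.05) and held at least 1 of 9 motifs searched on both strands. Capitals mark the motif matches. They are read 5′ to 3′ on the minus strand, from chr4:136886151-136886450, chr4:136892865-136893164 and chr6:122856108-122856407.
C1qb: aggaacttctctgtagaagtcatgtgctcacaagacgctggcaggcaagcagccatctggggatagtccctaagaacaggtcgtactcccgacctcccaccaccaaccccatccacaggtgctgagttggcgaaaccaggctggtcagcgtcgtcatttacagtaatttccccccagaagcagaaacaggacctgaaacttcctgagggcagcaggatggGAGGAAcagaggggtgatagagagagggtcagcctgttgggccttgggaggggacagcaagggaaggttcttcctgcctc
C1qc: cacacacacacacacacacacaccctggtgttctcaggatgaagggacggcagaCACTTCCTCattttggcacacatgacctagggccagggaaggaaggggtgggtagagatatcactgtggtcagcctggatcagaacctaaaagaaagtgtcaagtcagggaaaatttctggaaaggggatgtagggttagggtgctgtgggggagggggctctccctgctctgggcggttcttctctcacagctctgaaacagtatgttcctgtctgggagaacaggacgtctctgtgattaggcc
C3ar1: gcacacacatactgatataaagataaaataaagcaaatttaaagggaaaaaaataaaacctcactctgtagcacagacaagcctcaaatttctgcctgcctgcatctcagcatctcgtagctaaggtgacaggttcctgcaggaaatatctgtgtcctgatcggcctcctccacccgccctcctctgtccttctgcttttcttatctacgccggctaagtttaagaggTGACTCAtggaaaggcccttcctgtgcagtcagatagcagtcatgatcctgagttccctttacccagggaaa
In C1qb the capitals are the PU.1 core GAGGAA, 30 to 25 bases before the start. In C1qc they are that core on the other strand (193 to 188 bases before the start), overlapping the ETS site GGAAGTG (196 to 190). In C3ar1 they are the AP-1 site TGANTCA, 22 to 16 bases before the start. These distances count from the start in the promoter table. For C1qc, which has 2 annotated transcripts, the gene begins upstream of that start, at chr4:136893065, so its motifs lie nearer to the annotated gene start. Among 32851 promoters of the same length, 28.3% held GAGGAA, 11% held GGAAGTG and 7.81% held TGANTCA. The windows of C3 and C5ar1 held none of the 9. The other motifs were the interferon-gamma activated site TTCNNNGAA (8.3% of promoters), the C/EBP site TTGCNNCAA (2.08%), the E-box CACGTG (7.15%), the interferon-stimulated response element (3.44%) and 2 forms of the NF-kB site (0.155% and 0.11%), and no member's window held them.

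Libraries held 26473700 to 38890450 counted reads. Thy1, the deleted gene, read 104 to 149.6 CPM (read counts scaled to a common library size) in WT PBS, 231 to 416.2 in WT BLM, 45.64 to 96.87 in KO PBS and 84.66 to 128 in KO BLM, so reads still mapped to it in KO mice, and counts per gene do not show from which part. Keratinocyte markers were abundant in every mouse (summed 12220 CPM or more). The 24 tested genes of the growing hair follicle set libraries apart within groups: their mean log2 CPM was 9.56 to 10.22 in WT PBS and -0.10 to 3.72 in WT BLM, but 10.18 in KO PBS mouse 136 against -0.47 and 2.59 in its group, and 9.11 in KO BLM mouse 141 against 5.30 and 6.35. Growing-hair level therefore moves with treatment in WT mice, and the comparisons that include KO PBS mice are also given without mouse 136. In whole skin, fewer cells of a type and less RNA per cell cannot be told apart.

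The C1q chains, the recognition subunits of the classical pathway, rose together in WT BLM. C1qb read 52.34, 82.41 and 132.6 CPM in WT PBS mice 159, 160 and 161 and 295.7, 465.0 and 468.4 in WT BLM mice 145, 146 and 147. In the KO groups it read 45.44, 279.2 and 177.1 in KO PBS mice 136, 137 and 139 and 201.4, 299.4 and 280.9 in KO BLM mice 141, 143 and 144. The WT groups did not overlap, whereas KO PBS ran from the lowest value of all 12 mice to within the KO BLM range. C1qa read 49.84 to 132.2 CPM in WT PBS, 284.8 to 457.6 in WT BLM, 53.12 to 283.0 in KO PBS and 205.9 to 284.3 in KO BLM. C1qc read 45.88 to 109.9, 211.2 to 343.7, 48.20 to 235.8 and 153.8 to 226.2 CPM in the same order. The order of the 4 group means was the same for each chain, with KO PBS and KO BLM overlapping.

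WT BLM exceeded WT PBS by 2.09 ± 0.53 (log2 fold change ± SE) for C1qa, 2.20 ± 0.56 for C1qb and 1.87 ± 0.50 for C1qc, which are 4.27-, 4.60- and 3.66-fold. Adjusted p was 0.0172, 0.0175 and 0.0207 (edgeR quasi-likelihood test, Benjamini-Hochberg over all genes tested). These calls rested on the WT PBS mice: without mouse 159 adjusted p was 0.0651, 0.0667 and 0.0752, and without mouse 160 it was 0.0630, 0.0642 and 0.0679. C1qc was also lost without WT BLM mouse 147 (edgeR adjusted p = 0.0578). In KO mice the differences were 0.58 ± 0.51, 0.64 ± 0.54 and 0.42 ± 0.49, and none passed (edgeR adjusted p = 0.536, 0.519 and 0.645).

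**Figure D1:**
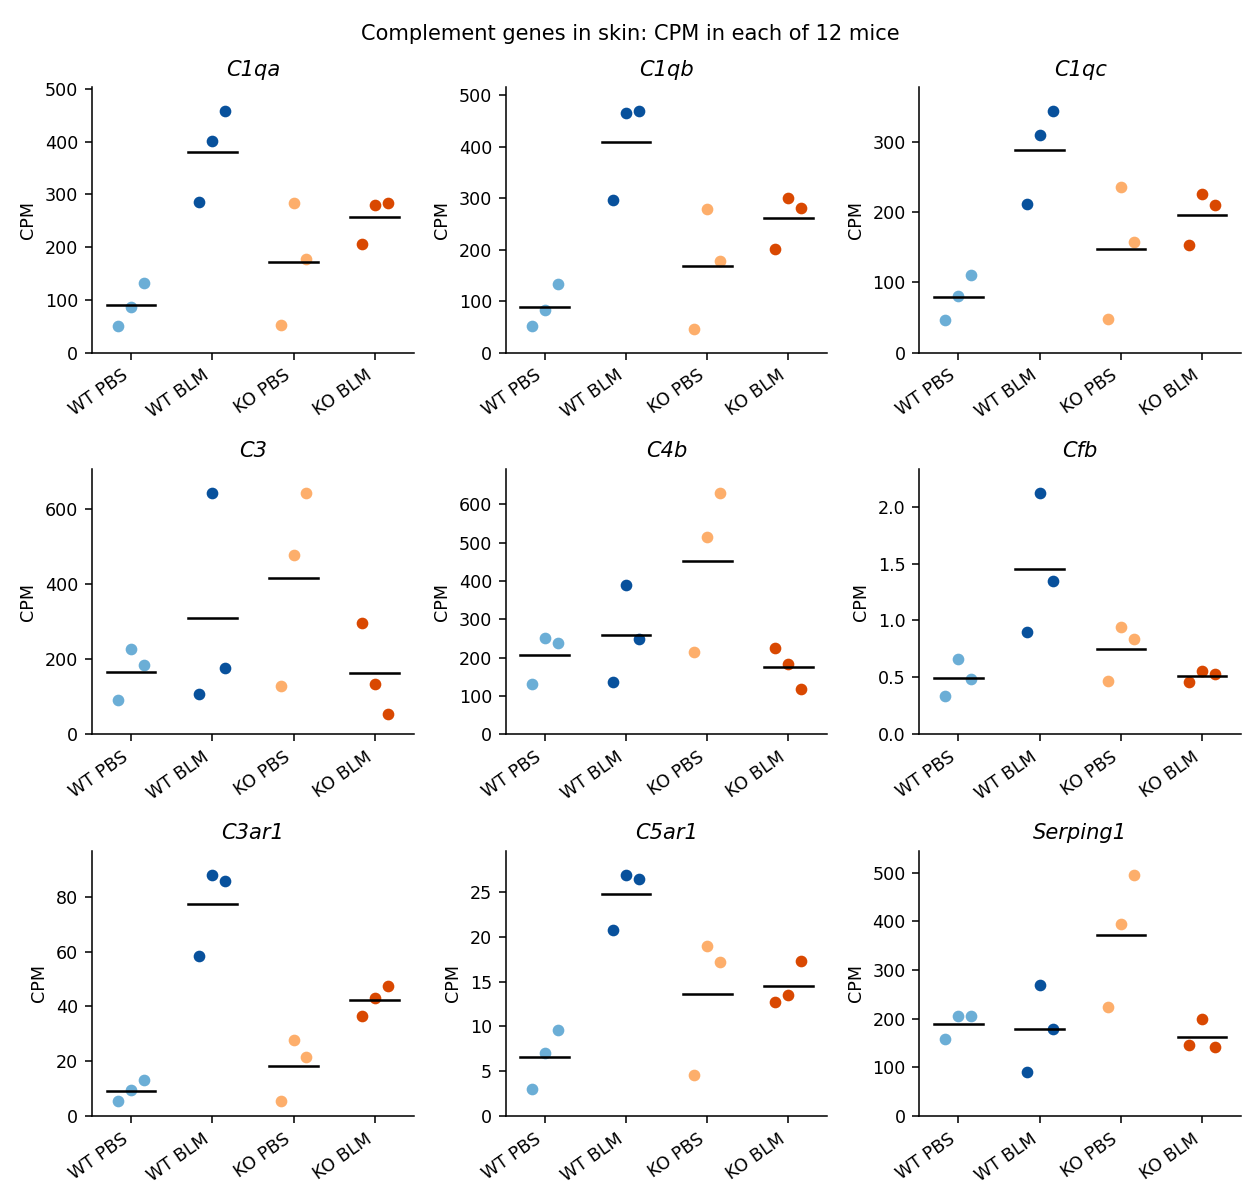
CPM (y axis, from 0) of the 9 complement genes in each of 12 mice, 1 point per mouse, by group (x axis). The line is the group mean. C1q chains, C3ar1, C5ar1 and Cfb lie higher in all WT BLM mice than in all WT PBS mice, while C3, C4b and Serping1 overlap between these groups and are highest on average in KO PBS.

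C3ar1, the receptor for C3a, had the largest response of the 9 genes in WT mice. It read 5.31, 9.38 and 13.04 CPM in the WT PBS mice and 58.57, 88.04 and 85.80 in WT BLM. The KO PBS mice read 5.48, 27.92 and 21.63 and the KO BLM mice 36.36, 43.01 and 47.43. Every bleomycin mouse of either genotype stood above every PBS mouse, as did 4.15% of the genes tested. C3ar1 rose 8.37-fold in WT mice (3.06 ± 0.53 on the log2 scale, edgeR adjusted p = 0.00545). This call was kept when each WT mouse was left out in turn (edgeR adjusted p 0.0116 to 0.0325). It was also kept without each KO mouse, which changes the spread shared by the groups and not the mice compared. In KO mice the difference was 1.20 ± 0.49 (edgeR adjusted p = 0.214).

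C5ar1, the receptor for C5a, read 3.04, 7.07 and 9.63 CPM in WT PBS and 20.79, 26.90 and 26.45 in WT BLM. In KO PBS it read 4.55, 19.00 and 17.13 and in KO BLM 12.67, 13.52 and 17.32. The WT groups were apart, and KO PBS mice 137 and 139 stood at or near the top of the KO range. C5ar1 rose 3.75-fold in WT mice (log2 1.91 ± 0.51, edgeR adjusted p = 0.0203), but not past the threshold without mouse 159 (0.0664), 160 (0.0641) or 147 (0.0523). The KO difference was 0.10 ± 0.49 (edgeR adjusted p = 0.935).

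Both receptors are myeloid, yet their ratio within a mouse separated the treatments. C3ar1 over C5ar1 was 1.74, 1.33 and 1.35 in WT PBS, 2.82, 3.27 and 3.24 in WT BLM, 1.20, 1.47 and 1.26 in KO PBS and 2.87, 3.18 and 2.74 in KO BLM. No PBS value reached any bleomycin value, in either genotype, including mice 136 and 141. Among all other genes, 0.524% had a ratio to C5ar1 that separated in the same way. C3ar1 over C1qb also did not overlap (0.0983 to 0.122 in PBS, 0.144 to 0.198 in BLM), as for 0.36% of genes. Within the C1q trio, C1qc over C1qb was 0.829 to 1.06 in PBS and 0.666 to 0.764 in BLM, a separation in this direction that 8.68% of genes shared, while C1qa over C1qb overlapped (0.952 to 1.17 and 0.863 to 1.02). The ratios were picked after the values were seen, and carry no test.

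**Figure D2:**
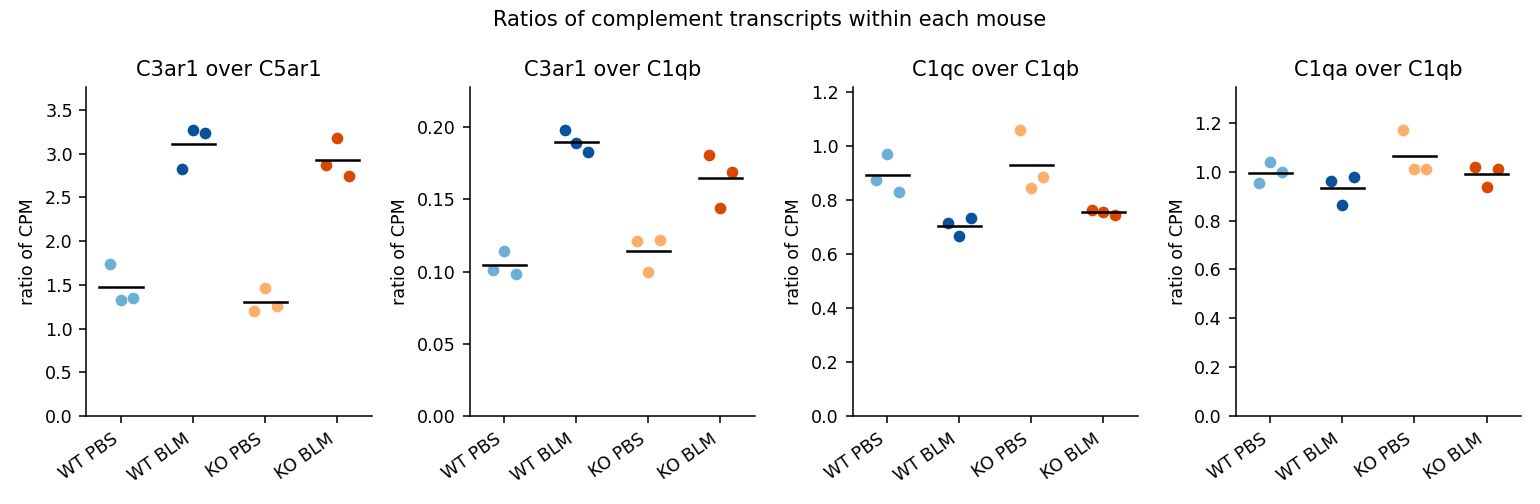
Ratio of CPM (y axis, from 0) of pairs of complement transcripts within each mouse, 1 point per mouse with the group mean as a line (x axis, group). C3ar1 over C5ar1 lies between 1.20 and 1.74 in the 6 PBS mice and between 2.74 and 3.27 in the 6 bleomycin mice.

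Factor B, the protease of the alternative pathway, was scarce, with 10 to 65 reads per mouse. Cfb read 0.338, 0.658 and 0.484 CPM in WT PBS, 0.900, 2.12 and 1.35 in WT BLM, 0.465, 0.943 and 0.834 in KO PBS and 0.459, 0.558 and 0.530 in KO BLM. WT BLM lay above WT PBS in each mouse, and KO BLM below all of WT BLM. Cfb rose 2.94-fold in WT mice (log2 1.56 ± 0.40, edgeR adjusted p = 0.0173), not past the threshold without mouse 159 (0.0667), 161 (0.0553) or 146 (0.0593). Most of the gene lies within Gm20547 on the same strand, to which no read was counted. The counter is not given, so reads shared by both may be missing from the Cfb count.

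C3, where the pathways meet, did not follow C1q. It read 90.35, 226.2 and 183.8 CPM in WT PBS and 106.7, 642.5 and 176.6 in WT BLM. In KO PBS it read 129.2, 477.8 and 642.4, and in KO BLM 297.4, 134.7 and 54.68. All groups overlapped, and a single WT BLM mouse, 146, raised that group's mean. The WT difference was 0.89 ± 0.80 (edgeR adjusted p = 0.402) and was -0.23 without mouse 146. The KO difference was -1.36 ± 0.81 (edgeR adjusted p = 0.361).

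C4b, the substrate of C1s, read 131.0, 250.4 and 237.9 CPM in WT PBS, 135.7, 390.0 and 248.2 in WT BLM, 215.0, 514.9 and 629.4 in KO PBS and 225.4, 184.5 and 118.8 in KO BLM. KO PBS mice 137 and 139 were the highest of the 12. The WT difference was 0.32 ± 0.46 (edgeR adjusted p = 0.608; -0.10 without mouse 146) and the KO difference -1.36 ± 0.47 (edgeR adjusted p = 0.169). C4b shares 23.5% of the 75-base windows of its longest transcript with C4a, so reads may be split between them, although C4a read only 1.16 to 2.87 CPM.

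Serping1, which inactivates C1r and C1s, read 157.7, 205.0 and 205.5 CPM in WT PBS and 90.17, 268.6 and 178.9 in WT BLM. In KO PBS it read 223.2, 394.6 and 495.7, and in KO BLM 145.7, 198.4 and 140.9. The WT groups overlapped, and every KO PBS mouse lay above every KO BLM and every WT PBS mouse. The WT difference was -0.08 ± 0.38 (edgeR adjusted p = 0.883; 0.24 without mouse 145), and the KO difference -1.20 ± 0.38 (edgeR adjusted p = 0.156).

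In WT mice 6 of the 9 members were thus called, all higher, beside 34% of all genes called (19.8% higher). The same 6 did not overlap between WT groups, beside 28.3% of genes. Their median log2 fold change over all 9 was 1.87, against 0.02 for all genes.

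**Figure D3:**
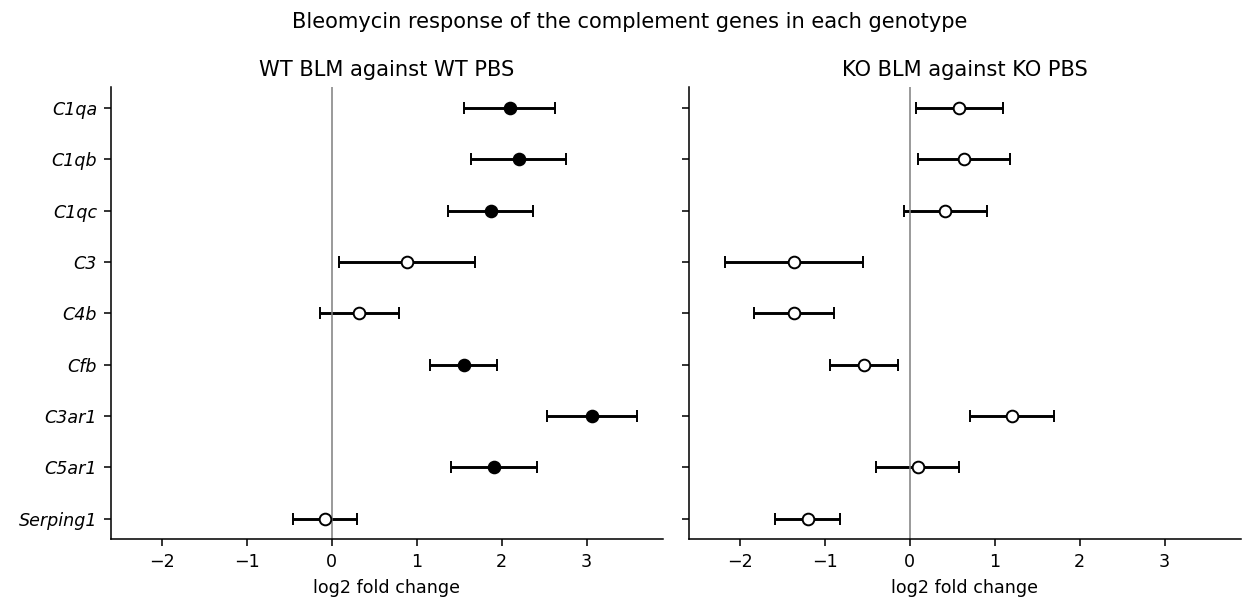
Log2 fold change of bleomycin against PBS (x axis) for each complement gene (y axis) in WT (left) and KO (right) mice. Bars are 1 SE, filled points passed an adjusted p of 0.05. There are 6 filled points on the left and none on the right.

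In KO mice none of the 9 was called by edgeR, beside 0.306% of all genes (3665 genes had an unadjusted p under 0.05), and DESeq2 called 1, Serping1 (-1.23, adjusted p = 0.0365, beside 2.66% of genes called lower). C3ar1 and Serping1 did not overlap between KO groups, beside 19.3% of genes. The median was 0.10, with 5 members above 0 and 4 below. Without mouse 136 C4b (-1.70, edgeR adjusted p = 0.0319) and Serping1 (-1.46, 0.0308) were called lower. In that fit 4.79% of genes were called lower. It sets KO PBS mice with growing-hair means of -0.47 and 2.59 against KO BLM mice with 5.30 to 9.11. The other log2 differences were then 0.16 for C1qa, 0.19 for C1qb, 0.00 for C1qc, -1.79 for C3, -0.78 for Cfb, -0.32 for C5ar1 and 0.77 for C3ar1. C3ar1 was called higher in KO mice with the growing-hair mean as a covariate (1.93, edgeR adjusted p = 0.0262) and with the macrophage mean (0.67, 0.0336). The fit with the macrophage mean also called C4b (-1.76, edgeR adjusted p = 0.0479) and Serping1 (-1.58, 0.0409) lower. The share of all genes called in these covariate fits is not given here.

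Between KO PBS and WT PBS all 9 differences were positive, 0.60 to 1.32 with a median of 0.97, and none was called by edgeR (adjusted p 0.221 to 0.373) or DESeq2, beside 0.0655% of genes called and 3727 genes at an unadjusted p under 0.05. Serping1 alone of the 9 stood higher in all KO PBS mice, as did 8.62% of genes. Without mouse 136, 7 were called higher, all but C3 and Cfb, beside 17.8% of genes called higher in that fit: C3ar1 by 1.42 (edgeR adjusted p = 0.00805), C5ar1 by 1.45, C4b by 1.47, Serping1 by 1.23 and the C1q chains by 1.32 to 1.37. These calls set 2 KO mice with low growing-hair levels against 3 WT mice with high ones.

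Between KO BLM and WT BLM all 9 were negative, from -1.49 for Cfb (edgeR adjusted p = 0.212) to -0.15 for Serping1, and none was called, beside 0.0928% of genes called and 3043 at an unadjusted p under 0.05. C1qa, Cfb, C3ar1 and C5ar1 stood lower in every KO BLM mouse, as did 12.9% of genes. DESeq2 called Cfb (-1.50, adjusted p = 0.0325, beside 1.64% of genes called lower), as did edgeR without mouse 136 (0.0399, beside 3.11%). Mouse 136 belongs to neither group compared here, and the Cfb difference stayed at -1.49. Leaving it out changes the spread that the 4 groups share. With the growing-hair mean as a covariate C1qa (0.41), C1qb (0.36), C1qc (0.37), C3ar1 (0.007), C5ar1 (0.041) and Serping1 (0.06) were positive. The bleomycin responses of the genotypes, compared by their difference (KO minus WT), gave negative values for all 9, from -2.25 for C3 to -1.12 for Serping1. For C3, C4b and Serping1 the KO value itself was further from 0 than the WT value, on the lower side. None was called by edgeR (smallest adjusted p 0.0726, Cfb), beside 0% of all genes and 5687 at an unadjusted p under 0.05. DESeq2 called Cfb (-2.11, adjusted p = 0.0129) and C3ar1 (-1.87, 0.0476), beside 10.6% of genes called lower. With the growing-hair mean as a covariate the difference was positive for the C1q chains, C3ar1 and C5ar1 (0.081 to 0.91). Without mouse 136 edgeR called 8 lower, all but C3, beside 19.5% of genes called lower in that fit, with C3ar1 at -2.29 (adjusted p = 0.00286). In that fit growing-hair level was higher with bleomycin in KO mice and lower in WT mice. It cannot be told apart from the difference of responses there. The KO PBS mice enter 3 of these comparisons, so the comparisons are not independent.

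Macrophage markers moved with the C1q chains and the receptors. The 15-gene list summed 581.3 to 1001 CPM in WT PBS, 2433 to 3331 in WT BLM, 611.7 to 1916 in KO PBS and 1650 to 2375 in KO BLM, no marker was at 0 in any mouse, and 11 of 15 rose in WT BLM, beside 19.8% of all genes. Markers of several other cell types moved in the same comparison: 4 of 5 tested neutrophil, 7 of 8 T cell, 3 of 8 dendritic cell, 5 of 8 endothelial, 6 of 10 fibroblast and 15 of 16 skeletal muscle genes rose, and 7 of 7 melanocyte genes fell. In the fibroblast list 1 gene fell, and 1 of 8 keratinocyte and 0 of 8 adipocyte genes were called. Over 12 mice, which share groups, the list's mean log2 CPM had a Pearson r of 0.99 with each C1q chain, 0.98 with C3ar1 and 0.96 with C5ar1. With that mean as a covariate, C1qa was -0.24 and C3ar1 0.77 in WT mice (edgeR adjusted p = 0.184 for C3ar1), and no member was called there. The mean did not overlap between the WT groups (4.02 to 4.86 in WT PBS, 5.96 to 6.57 in WT BLM). In WT mice the macrophage level and the treatment therefore cannot be told apart by this fit. All 15 interferon-response genes also rose, with r of 0.94 to 0.97 for the C1q chains and C3ar1 and 0.88 for C5ar1. The part of the interferon response in the result was not tested. Growing-hair level ran the other way (r -0.71 to -0.80 for these 5 genes), and with it as a covariate no member was called in WT mice. The WT differences were then 0.57 for C1qa, 0.60 for C1qb, 0.41 for C1qc, 0.65 for C5ar1, 1.23 for Cfb and 1.69 for C3ar1 (edgeR adjusted p = 0.291 for C3ar1). In WT mice the growing-hair level and the treatment cannot be told apart.

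C3, C4b and Serping1 went with other lists. Over the 12 mice the 8-gene adipocyte list had an r of 0.90, 0.91 and 0.87 with C3, C4b and Serping1, and the macrophage list 0.29, 0.23 and 0.02. Once group means were removed, r was 0.97, 0.89 and 0.78 with the adipocyte list and 0.55, 0.73 and 0.72 with the macrophage list, so within groups C4b and Serping1 went with both. The adipocyte list summed 836.3 to 1126 CPM in WT PBS, 372.6 to 1526 in WT BLM, 1169 to 2260 in KO PBS and 386 to 1116 in KO BLM, with no marker at 0. With its mean as a covariate C3 passed in WT mice (0.97, edgeR adjusted p = 0.0181), where it was not called otherwise. The fibroblast list had an r of 0.69 with C3, 0.76 with C4b and 0.77 with Serping1, and of 0.66, 0.80 and 0.96 once group means were removed. Their part in the result was not tested.

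**Figure D4:**
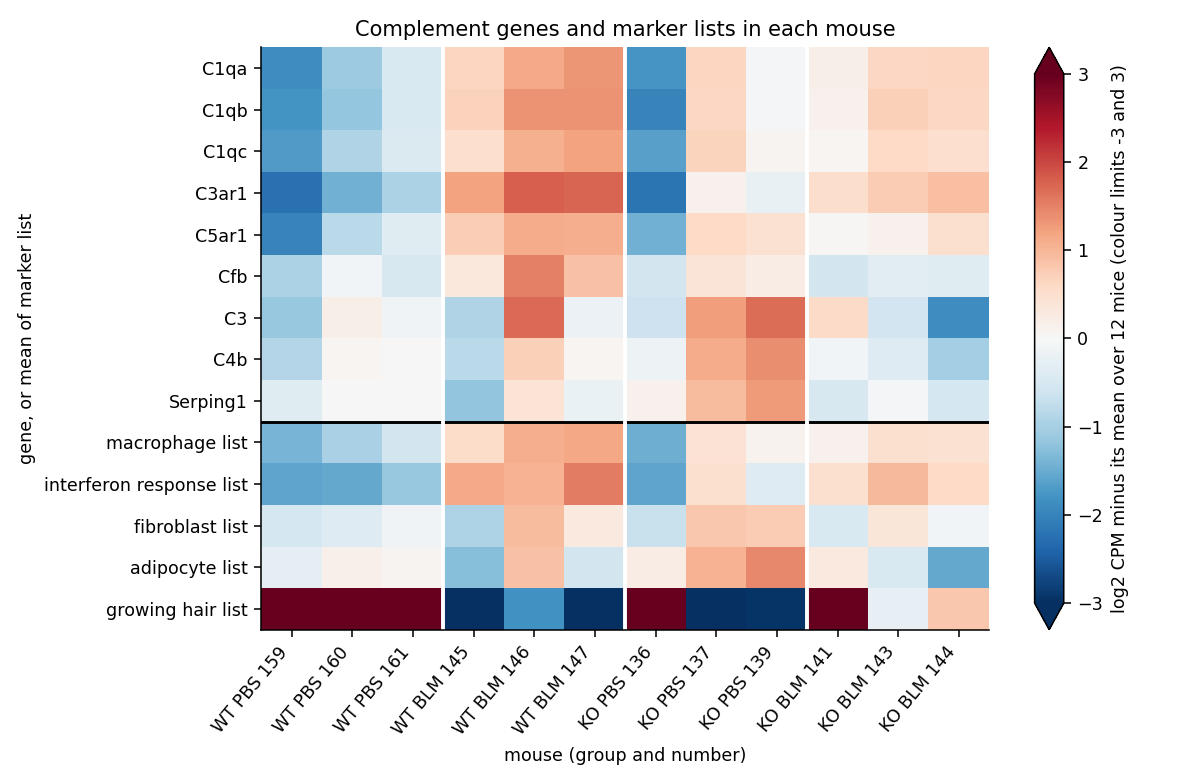
Log2 CPM minus its mean over 12 mice (colour, limits -3 and 3) for 9 complement genes and 5 marker lists (rows) in each mouse (columns). C1q chains, C3ar1 and C5ar1 are low in the 4 mice with the lowest macrophage values, and C3 and C4b are high in KO PBS mice 137 and 139, as is the adipocyte list.

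The genes nearest to each member by Pearson r over the 12 mice, among 13197, were as follows. Alox5ap (0.994), Milr1 and Fcgr3, an Fc receptor, lay nearest C1qa. Plek (0.993), Nckap1l and Cd300ld lay nearest C1qb, and Fcgr3 (0.995), Alox5ap and Pirb nearest C1qc. C3ar1 was nearest to Cybb (0.996), a subunit of the phagocyte oxidase, then Lgals3bp and Cd84. C5ar1 was nearest to Tbxas1 (0.981), Csf1r and Tlr7. Cybb and Csf1r are also in the macrophage list. For C3 they were Abcd2 (0.981), Adhfe1 and Pcx, and for C4b they included Man1a (0.981) and Chp2. Serping1 lay nearest Dcn (0.971), a dermal proteoglycan gene, then Gstt1 and Ldb2. Those of Cfb included Peak1 (0.959) and Adap2 (0.952).

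Per kilobase of exon, C1qa was at 85.9 ± 39.7 CPM (SD, n = 3) in WT PBS, C1qb at 81.9 ± 37.3 and Serping1 at 81.5 ± 11.8, which do not differ beyond their spread. By the longest transcript in place of all exons, Serping1 came first at 107.1 and C1qc read 65.4. By all exons, C1qc, C4b and C3 followed at 40.7, 36.3 and 32.4, C5ar1 and C3ar1 at 2.56 and 2.15, and Cfb last at 0.175. The Cfb level may miss reads shared with Gm20547. In WT BLM C1qb (377 ± 90.8) and C1qa (367 ± 84.7) headed the order, again within their spread, and Serping1 (77.1 ± 38.4) stood behind C1qc (149 ± 35.7). C3ar1 reached 18.0 ± 3.81 and passed C5ar1 (9.62 ± 1.33).

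Of 50 further complement genes, 39 were tested. In WT mice 10 rose and 1 fell (11 of 39 called), beside 34% of all genes called and 19.8% called higher, so the list as a whole stands near that background. Its median log2 fold change was 0.64. Of the 11 receptors and C1q-binding proteins tested, 7 rose: Itgax (3.49), Itgb2 (2.92) and Itgam (2.40), which make complement receptors 3 and 4, Megf10 (2.26), Cd93 (1.85), C5ar2 (1.64) and Scarf1 (1.23). Itgax read 4.76 to 6.76 CPM in WT PBS and 55.56 to 78.95 in WT BLM, without overlap (edgeR adjusted p = 0.00415). The lectin-pathway protease Masp1 was the only 1 of 9 classical and lectin genes called (2.18, edgeR adjusted p = 0.0056).

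None of 7 alternative and terminal pathway genes was called by edgeR in WT mice, where the largest difference was Hc, the gene of C5 (2.43, adjusted p = 0.124), then C7 (-1.73, 0.0627). C7 was called lower by DESeq2 (adjusted p = 0.0321) and by edgeR in a model of the WT groups alone (0.00455) or without mouse 136 (0.00638) or 137 (0.0386). Cfp, which stabilises the convertase, was called higher in a model of the WT groups alone (1.09, edgeR adjusted p = 0.043) and without mouse 136 (0.0245). Mice 136 and 137 are KO PBS mice, so leaving them out changes the shared spread and not the WT mice compared. Of 12 regulators, Cfi, the C3b-cleaving protease (2.04, at under 1 CPM in each mouse), and Cd59a, which blocks the membrane attack complex (1.25), rose, and Susd4 fell (-1.70). Cfd, the protease that activates factor B, was picked after its values were seen: it read 200.1 to 1393 CPM in WT BLM, where mouse 146 was again highest.

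No gene of the wider list was called by edgeR in the other 4 comparisons. DESeq2 called 8, 2, 2 and 5 (KO treatment, PBS mice, BLM mice and difference of responses), in either direction. Of all genes, DESeq2 called 2.66% lower in KO treatment, 1.64% lower between BLM mice and 10.6% lower in the difference. The shares called higher, and those between PBS mice, are not given here, so these counts are not read against the background. In KO mice C7, a component of the membrane attack complex, lay lowest at -4.00 ± 0.70 (edgeR adjusted p = 0.0509), with 20, 186 and 95 reads in KO PBS and 8, 7 and 2 in KO BLM. The 11 genes not tested were C1rb, Masp2, Mbl1, Mbl2, Fcnb, Colec10, C8a, C8b, C4bp, Cpb2 and Cr2, with at most 15 reads in any mouse.

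**Figure D5:**
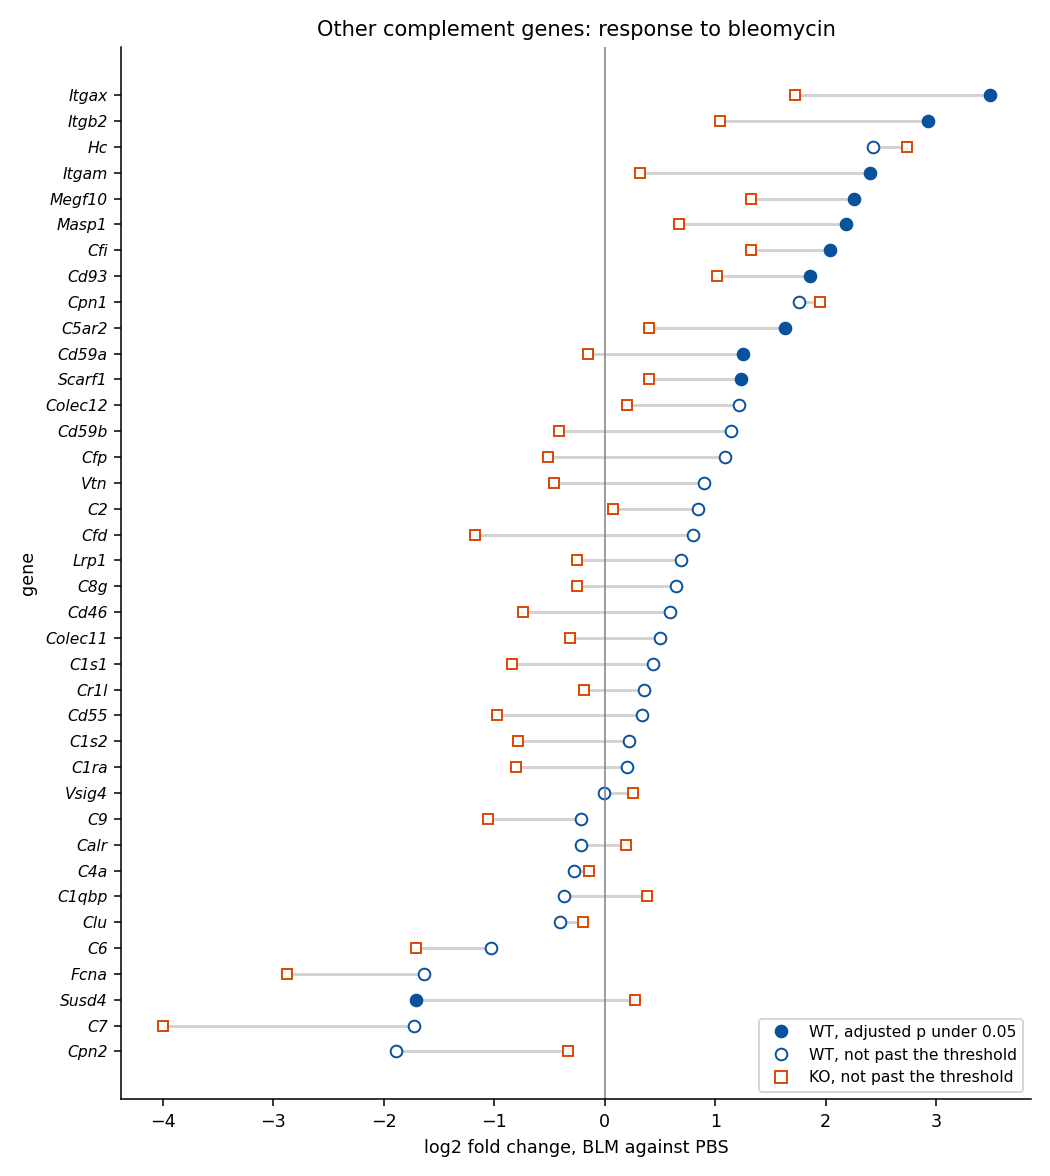
Log2 fold change of bleomycin against PBS (x axis) of further complement genes (y axis) in WT (circles, filled where adjusted p was under 0.05) and KO mice (squares). Integrin subunits Itgax and Itgb2 lie farthest right in WT, and C7 farthest left in KO.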

How the data were processed

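Stranded mRNA libraries from skin of 12 mice were sequenced as read pairs, and the authors deposited whole-number read counts per gene, not normalized. The submitters' processing notes name GRCm38.p6 and MultiQC 1.7; aligner, counter, annotation and the strand setting of counting are not given in the sources used here. From the counts, edgeR 4.0.16 (R 4.3.3) fitted TMM-scaled quasi-likelihood models with 4 group means (3 mice each), and 5 comparisons were tested over 18311 genes kept by filterByExpr (minimum count 10), with Benjamini-Hochberg adjustment and a threshold of 0.05. Log2 CPM for correlations used a prior count of 2, and CPM and lengths came from the counts and GENCODE M21. DESeq2 1.42.0 was an alternative. The biological coefficient of variation was 34.9%. The fit was tested on simulated data. Mice are separate animals, so p-values weigh a difference against the spread between mice. Within 1 genotype, with 3 mice against 3, an exact test on a single ratio could not go below 0.1. All 9 members were described, with wider-list genes past the threshold or among the 10 largest others, and the 3 genes nearest each member, except a few genes that are not reported here. Members and lists were chosen with earlier results of these data known. The adipocyte covariate and leaving out mice 136 and 141 together were added after seeing the data.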

Additional observations from a re-analysis of the deposited data

How the results depend on the processing

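Another normalization (RLE, upper-quartile) or a 1 CPM minimum changed no count of calls by over 1.5 times and no direction of the members fitted, but the 1 CPM minimum removed Cfb, which was then not tested. No paired analysis was possible because mouse numbers are not shared between groups. With 3 mice a group, single libraries decided calls. Members called, with each mouse left out, ran from 1 to 6 (WT treatment; 1 without mouse 159, 2 without 160), 0 to 2 (KO treatment), 0 to 7 (PBS mice), 0 to 1 (BLM mice) and 0 to 8 (difference of responses), the highest of the last 4 without mouse 136. Wider-list calls ran 6 to 20 (6 without mouse 159, 7 without 160, 161, 146 or 147, 20 without 136), 0 to 10, 0 to 17, 0 to 3 and 0 to 18. Leaving out mice 136 and 141 together gave 6, 2, 7, 0 and 8 members and 21, 11, 17, 1 and 17 wider genes. C5ar1 in KO mice became -0.23. The share of all genes called in that fit is not given here, so these counts are not read as particular to complement. Without mouse 136 alone, 17.8% of all genes were called higher between PBS mice, and 19.5% lower in the difference of responses. Mouse 136 is in neither the WT treatment nor the BLM comparison, where leaving it out changes the shared spread. DESeq2 called 1, 1 and 2 members (KO treatment, BLM mice, difference) and 8, 2, 2 and 5 wider genes in the last 4 comparisons. The shares of all genes called lower by DESeq2 are given above for KO treatment, BLM mice and the difference. Without a filter 1 wider gene was called in KO mice, and a model of the compared groups alone called 18 in WT mice. The growing-hair covariate left 0 members and 0 wider genes in WT mice and gave 1 and 4 in KO mice. The macrophage covariate gave 0 members in WT and 3 in KO mice (C3ar1 higher, C4b and Serping1 lower).

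Directions turned as follows (log2). Leaving out 1 mouse, C3 ran from -0.23 to 1.29, C4b from -0.10 to 0.63 and Serping1 from -0.49 to 0.24 in WT mice, C5ar1 from -0.32 to 0.41 in KO mice, and C3 from -1.67 to 0.20 and Serping1 from -0.47 to 0.26 between BLM mice. C1qc in KO mice ran from 0.00 to 0.93 and at its lowest had no direction. With the growing-hair covariate, C4b was -0.01 in WT mice. Between PBS mice C1qa, C1qb, C1qc, C3ar1 and C5ar1 were -0.41, -0.55, -0.37, -0.23 and -0.04, between BLM mice 0.41, 0.36, 0.37, 0.007 and 0.041 with Serping1 at 0.06, and in the difference 0.81, 0.91, 0.74, 0.24 and 0.081. With the macrophage covariate, C1qa, C1qb, C1qc, C3, C4b and C5ar1 were -0.24, -0.32, -0.38, -1.28, -1.27 and -0.21 in WT mice, and C1qc and C5ar1 -0.13 and -0.44 in KO mice. Between PBS mice C1qa, C1qb, C1qc and C3ar1 were -0.091, -0.24, -0.089 and -0.047, between BLM mice C1qa, C1qb, C1qc, C4b and Serping1 0.17, 0.14, 0.16, 0.017 and 0.28, and in the difference the C1q chains 0.26, 0.38 and 0.25. With the adipocyte covariate, C3 and Cfb were 0.62 and 0.11 in KO mice, C3 -0.14 between PBS mice and Serping1 0.13 between BLM mice. The cause was not tested.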
